A study of Arabidopsis thaliana with 24 samples.

Results

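Among the 22746 probe sets of the ATH1 array that are not controls, 34 with strong rises with light are described here. They were selected on 2 measured values, a mean log2 signal of at least 9 (a signal of 512) over the 12 arrays from light and a mean log2 difference of at least 2.5 between light and dark (5.66-fold) over all 24 arrays. These thresholds were met by 39 probe sets, and 5 of them (AT1G06000, GPT2, GI, F3H and AMT1;2) were set aside by name. Their light differences were 5.38, 3.91, 3.77, 3.49 and 3.49, and that of AT1G06000 was above every member. Transcripts whose symbol begins with HSP were to be set aside too, and no probe set with such a symbol met both thresholds. This could not be checked for the 18 unnamed members, and AT3G09440, which encodes an Hsp70, is named by its locus and stayed in. A single gene could be given to 15 members, 12 from the annotation of the array and 3 from the gene lists of the study alone. One probe set, counted here as 1 member with several genes, covers AT4G27570 and AT4G27560, and 18 members stay unnamed and are given by probe set.

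Light is sensed in plant seedlings by phytochromes, cryptochromes and other photoreceptors, and it also reaches transcription through sugars made in photosynthesis and through the circadian clock. The transcripts that accumulate when light returns include those for flavonoid pigments that screen the tissue, for chaperones that fold proteins, for feedback regulators of the photoreceptors and for enzymes of growth and primary metabolism. Nitrate and ammonium act on overlapping metabolism, and bZIP1 is a leucine zipper transcription factor of the S1 group that has been placed in sugar and energy signalling.

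The study asked how nitrogen and light act on transcripts when bZIP1 is lost. The bzip1-1 mutant is 1 line with a T-DNA insertion in the only exon of bZIP1, in the Col-0 background, and WT-sib is the control of the same descent without the insertion. All seedlings grew for 14 days on 0.5 mM KNO3 in 16 h of light per day at 50 µE per m2 and s and 22 °C. They were then moved for 2 h, beginning when the lights came on, to plates with 20 mM KNO3 and 20 mM NH4NO3 (+N) or with KCl instead (-N), in light (+L) or wrapped in aluminium foil (-L). The 8 groups are WT-sib and bzip1-1, each under -N-L, +N-L, -N+L and +N+L, with 3 arrays per group. Whole seedlings were extracted, and the labels call the 3 arrays of a group biological replicates. The methods describe them as independent experiments, and the sources used here do not say whether arrays of the same number come from 1 experiment. A level is MAS 5.0 signal, a brightness on a linear scale, and a difference is one of mean log2 signal.

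Every array was scaled by the authors to a trimmed mean of 500, and its median signal over all probe sets lay between 182 and 216. Of 10 leaf photosynthesis genes and 10 root-preferential genes on lists, 4 and 2 were found by name, and no detection calls were at hand. The photosynthesis enzymes RCA, PRK, SBPASE and HPR had signals of 5678 to 34876 with light differences of -0.09 to 0.21. The root-preferential PYK10 read 4039 to 14584 and EXPA7, dim on some arrays, 44.6 to 319, with light differences of 0.42 and 0.21. Fewer cells of a type and less RNA per cell cannot be told apart in whole seedlings. The probe set of bZIP1 itself is not named by the tables used here, so its level was not analysed. On the -N+L arrays of replicate number 1, the 2 genotype labels were put in doubt by transcripts outside the set. The transcript AT3G56290 ranged from 1656 to 2687 in light in WT-sib and from 6747 to 11651 in bzip1-1 when the -N+L pair of number 1 was set aside. In that pair it read 7861 under the WT-sib label and 1806 under the bzip1-1 label. The labels were kept, and in the fit without a replicate block no member was called with or without these arrays. Without them 33 probe sets met the rule, of which 32 are members.

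The light difference of the 34 members ran from 2.51 to 4.71 with a median of 2.88, or from 5.71-fold to 26.2-fold with a median of 7.34-fold. It chose the members and carries no test. All 34 were higher in light in each of the 12 combinations of genotype, nitrogen and replicate number, as were 6.3% of all probe sets. The lowest light array exceeded the highest dark array in 28 of 34 members, against 1.61% of all probe sets, and both shares follow from the selection. The members nearest the threshold on the difference were cPT4 (2.51), 260380_at (2.53), AT1G73600 (2.53) and DFL2 (2.55), and just outside it were 252607_at (2.49), 245348_at (2.48), GBSS1 (2.46) and 252863_at (2.45). Nearest the threshold on the level in light were AT5G12110 (9.08), AT5G48570 (9.09), AT4G27570 with AT4G27560 (9.30) and AT3G14200 (9.45), and just below it were 245628_at (8.98), 260248_at (8.89), AT5G01790 (8.78) and 258336_at (8.77).

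**Figure D1:**
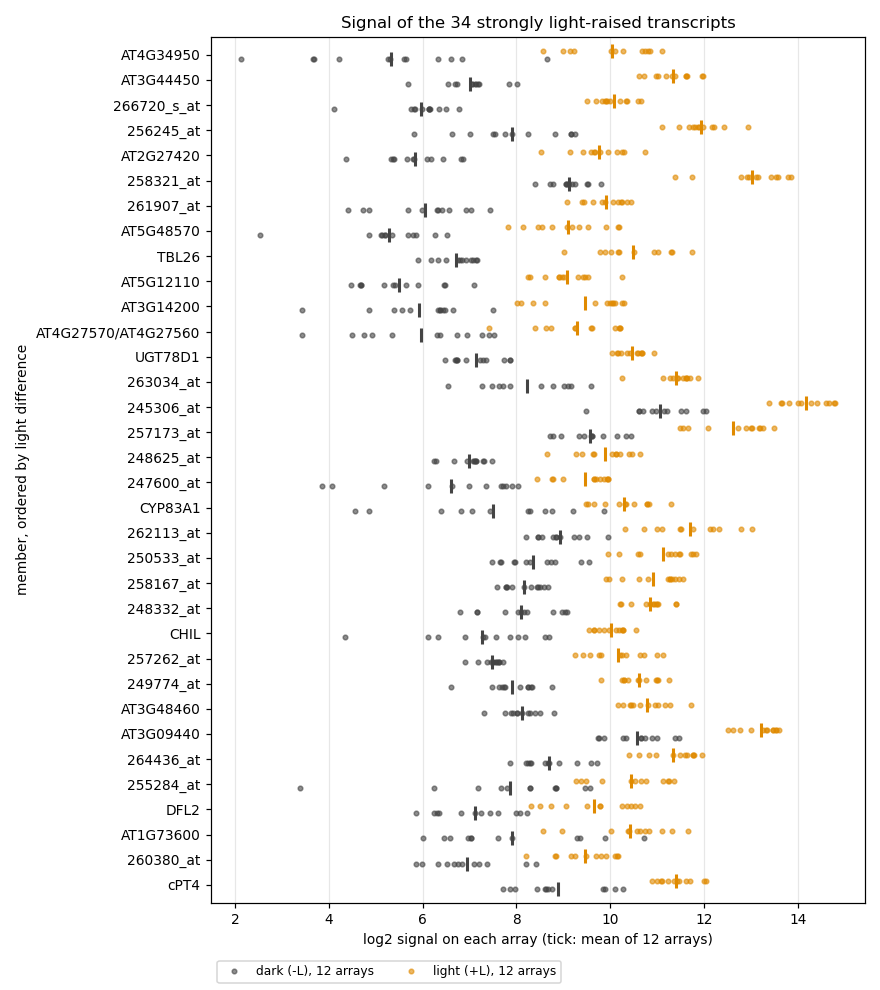
Log2 signal of each of the 34 members on the 12 dark arrays (grey) and the 12 light arrays (orange), with a tick at the mean of each, members ordered by their light difference. The difference of the means runs from 4.71 for AT4G34950 down to 2.51 for cPT4, and the dark points of many members are more scattered than the light points.

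AT4G34950, a membrane protein of the major facilitator superfamily related to nodulins, had the largest light difference. Its signal was 4.36 at the lowest, 44.1 at the median and 402 at the highest of the 12 dark arrays, and 376, 1171 and 2193 in light. The ranges met because a single dark array, bzip1-1 +N-L number 2, read 402. AT3G44450, which encodes the cryptochrome inhibitor BIC2, a feedback regulator that keeps blue light receptors from pairing, followed with a difference of 4.32. It read 51.3, 136 and 256 in the dark and 1559, 2608 and 4028 in light, and the ranges lay far apart.

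Chaperones and protein synthesis were represented by 4 named members. AT5G48570 (ROF2), a peptidyl-prolyl isomerase that binds heat shock proteins, read 5.79, 38.6 and 92.2 in the dark and 226, 563 and 1168 in light, a difference of 3.80. AT3G14200, of the DnaJ-domain family of Hsp70 co-chaperones, had 3.52, with 10.7, 81.7 and 182 in the dark and 258, 998 and 1256 in light. AT3G09440 encodes an Hsp70 of the cytosol, and its difference was 2.64, with 859, 1608 and 2825 in the dark and 5844, 10307 and 12445 in light. AT5G12110, a subunit of translation elongation factor 1, had 3.57, with 22.3, 41.8 and 136 in the dark and 304, 509.4 and 1217 in light. In all 4 the light and dark arrays did not overlap.

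Flavonoid and other secondary metabolism gave a further group. UGT78D1 adds rhamnose to flavonols and scattered little in light, with an SD within groups of 0.26. It read 88.6, 135 and 234 in the dark and 1054, 1453 and 1966 in light, a difference of 3.33. CHIL, a chalcone isomerase-like protein that assists the first steps of the flavonoid pathway, read 20.2, 174 and 415 in the dark and 749, 1061 and 1500.3 in light, with a difference of 2.74 and an SD of 0.23 in light. CYP83A1, a cytochrome P450 of aliphatic glucosinolate synthesis, read 23.4, 238 and 929 in the dark and 719, 1285 and 2497 in light, so that its ranges overlapped at a difference of 2.79. The probe set shared by AT4G27570 and AT4G27560, which encode UDP-glycosyltransferases and cannot be separated on it, had 3.34 and also overlapped.

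The other named members belong to several pathways. AT2G27420, a papain-like cysteine protease, had a light difference of 3.92, and TBL26, of a family that acetylates cell wall polysaccharides, had 3.77. AT3G48460, a GDSL-type lipase, had 2.67, DFL2, of the GH3 family of enzymes that conjugate hormones to amino acids, had 2.55, and cPT4, a cis-prenyltransferase of polyprenol synthesis, had 2.51. AT1G73600, a phosphoethanolamine methyltransferase related to those that make phosphocholine, read 64.3, 162 and 1689 in the dark and 378, 1548 and 3245 in light, a difference of 2.53 with overlapping ranges. The unnamed members covered the same range of differences, from 2.53 for 260380_at to 4.10 for 266720_s_at, and 245306_at, with a difference of 3.11, read 715, 2154 and 4187 in the dark and 10697, 18471 and 28541 in light.

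In the dark, 11 of the 34 members had a mean log2 signal below the 40th percentile of all probe sets, which is a signal of 123, and for these a fold is sensitive to the dim end of the scale. The SD within groups had a median of 0.64 over the members in light and 0.77 in the dark, against 0.43 for all probe sets in each light state. It was larger in the dark in 25 members. The widest in the dark were 255284_at with 1.79, 247600_at with 1.74 and CYP83A1 with 1.72.

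The light difference was present in each of the 4 combinations of genotype and nitrogen. Its median over the members was 2.94 in WT-sib without nitrogen, 2.90 in WT-sib with nitrogen, 3.26 in bzip1-1 without nitrogen and 2.96 in bzip1-1 with nitrogen. The lowest value of any member in any combination was 1.91, for 255284_at in WT-sib without nitrogen. Averaged over the genotypes it was larger under +N in 10 members and under -N in 24. Averaged over nitrogen it was larger in bzip1-1 in 21 members and in WT-sib in 13. Over all probe sets it was larger under +N in 43.6% and larger in bzip1-1 in 49.1%. Without WT-sib +N+L number 3 the member counts for -N and for WT-sib were 19 and 22, and the second was also 22 without WT-sib +N-L number 1. AT4G34950 spread most, with 5.62, 5.17, 5.21 and 2.84 in that order, and 262113_at hardly moved, with 2.78, 2.65, 2.76 and 2.90.

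Nitrogen was tested by limma across all probe sets, and without a block for the replicate number no member was called at an adjusted p of 0.05. Over both light states and genotypes 0 of 34 members passed, where 0.954% of all probe sets did. At an unadjusted p of 0.05, 4 members passed against 9.42% of all probe sets. Within light 0 members were called (background 0.655%) and 1 had an unadjusted p below 0.05 (8.16%). Within the dark 0 were called (0.0703%) and 1 had such a p (5.83%). The ANOVA of the study's design on linear or on log2 signal, adjusted in the same way, also called 0 members for nitrogen. With the replicate number as a block, limma called 1 member over both light states, 262113_at, among 652 of 22746 probe sets. Within light and within the dark it called 0 members with the block. This block was 1 shift per replicate number, shared by light and dark arrays. The members' shifts differed by light state, with a median for number 2 of 0.33 in light and -0.14 in the dark. A block within light alone was not fitted.

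The 34 nitrogen differences were set beside those of all probe sets by median and sign only. Their median was -0.01 over both light states, with 17 members above 0 and 17 below, and the median of all probe sets was -0.04. In light it was -0.11 (all probe sets -0.07), with 9 members above 0 and 25 below, where 40.2% of all probe sets were above 0. With single arrays left out this median ran from -0.26 (28 below 0, without bzip1-1 -N+L number 3) to 0.02 (15 below 0, without WT-sib +N+L number 3). In the dark it was 0.07 (all probe sets -0.01), with 20 members above 0, where 48.4% of all probe sets were. There it ran from -0.09 (15 above 0, without WT-sib +N-L number 1) to 0.25 (25 above 0, without WT-sib +N-L number 2), and it was -0.02 without bzip1-1 -N-L number 2. The direction of both medians thus depended on single arrays. The 95% interval of the nitrogen difference lay between -1 and 1 on the log2 scale for 23 members over both light states, for 17 in light and for 15 in the dark, so a change of 2-fold is outside the interval for these and inside it for the others. Each interval rests on 1 spread over light and dark groups, so those in light also carry the scatter in the dark.

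**Figure D2:**
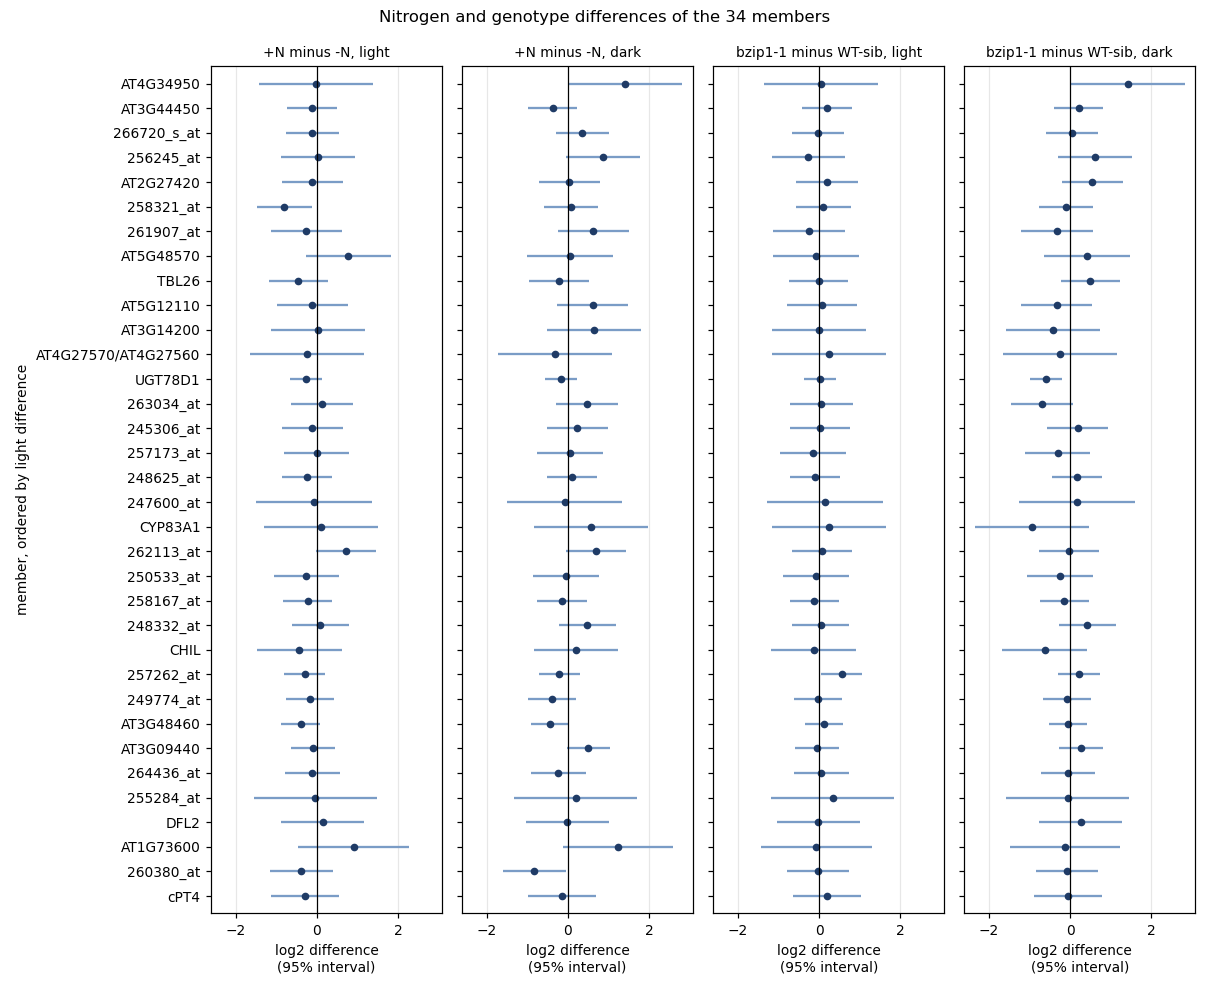
Log2 differences with 95% intervals of the 34 members for nitrogen in light, nitrogen in the dark, genotype in light and genotype in the dark, members ordered by light difference. Nitrogen differences run from -0.80 to 0.91 in light and from -0.83 to 1.39 in the dark, most intervals include 0, and no member passed the adjusted threshold.

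The largest nitrogen difference over both light states was that of AT1G73600, the phosphoethanolamine methyltransferase. In light it read 378 at the lowest, 1423 at the median and 1723 at the highest of the 6 arrays under -N, and 1029, 1993 and 3245 under +N. In the dark the 6 arrays under -N read 64.3, 127 and 655, and those under +N read 95.3, 348 and 1689, so that the groups overlapped in both light states. The difference was 1.07 (SE 0.46, 95% interval 0.11 to 2.03, adjusted p = 0.453 by limma), and +N was above -N in 6 of 6 number-matched pairs in light and in 5 of 6 in the dark. AT1G73600 was the single member with an absolute difference of 1 or more. Here and below, counts of number-matched pairs were not compared with those of all probe sets. They describe single members and are no test.

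The unnamed 262113_at had the smallest adjusted p for nitrogen. It read 1267, 2519 and 5106 in light under -N and 2057, 4023 and 8376 under +N, and 297, 363 and 489 in the dark under -N and 441, 622 and 994 under +N. In the dark its +N values were above the -N values of the same number in 6 of 6 pairs, and in light in 5 of 6, with overlapping groups. The difference was 0.70 (SE 0.25, 95% interval 0.18 to 1.22, adjusted p = 0.294), nearly equal in light (0.70) and in the dark (0.70). With the replicate number as a block, its adjusted p was 0.0276 (SE 0.17) by limma, and it was then the 1 member called among 652 of 22746 probe sets.

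Lower under nitrogen were AT3G48460, the GDSL-type lipase, and 260380_at. AT3G48460 read 1385, 2027 and 3356 in light under -N and 1145, 1474 and 2071 under +N, and its difference over both light states was -0.42 (SE 0.16, adjusted p = 0.351). Its +N values were below in 6 of 6 pairs in light and in 5 of 6 in the dark. For 260380_at the difference was -0.60 (SE 0.26, adjusted p = 0.448), made up of -0.83 in the dark, where 5 of 6 pairs were lower, and -0.38 in light, where 4 of 6 were lower.

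In light alone, the most negative member was 258321_at. Its signal was 8003, 11837 and 14778 on the WT-sib -N+L arrays and 2649, 7774 and 9089 on the WT-sib +N+L arrays. In bzip1-1 it was 7054, 12257 and 14145 under -N and 3415, 8773 and 11045 under +N. The difference in light was -0.80 (SE 0.32, 95% interval -1.47 to -0.13, adjusted p = 0.459), with +N lower in 6 of 6 pairs, and it was 0.07 in the dark. Without WT-sib +N+L number 3, the array on which it was dimmest, the value was -0.52 (SE 0.29).

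Named members in light included both signs. AT5G48570, the heat-related isomerase, had 0.77 (SE 0.51, adjusted p = 0.775), with 226, 438 and 739.8 under -N and 374, 783 and 1168 under +N. CHIL, of the flavonoid pathway, had -0.44 (SE 0.50, adjusted p = 0.908), and UGT78D1 had -0.26 (SE 0.19, adjusted p = 0.823). These SEs pool the light and dark groups, and the SD of CHIL within groups was 0.23 in light and 1.34 in the dark. A fit to the light arrays alone was not run. CHIL was below under +N in 6 of 6 pairs in light and UGT78D1 in 5 of 6, and both groups overlapped. TBL26 had -0.46 (SE 0.35), cPT4 -0.30 (SE 0.40) and DFL2 0.14 (SE 0.49), and the 95% interval of each included 0. TBL26 was at -0.17 and DFL2 at 0.49 without WT-sib +N+L number 3, and DFL2 was at -0.13 without bzip1-1 -N+L number 3.

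In the dark, AT4G34950 had the largest nitrogen difference, 1.39 (SE 0.67, 95% interval -0.01 to 2.80, adjusted p = 0.865). In WT-sib its arrays read 12.7, 18.7 and 38.2 under -N-L and 4.36, 48.8 and 114 under +N-L. In bzip1-1 they read 12.9, 39.3 and 50.1 under -N-L and 79.8, 97.1 and 402 under +N-L. The lowest and the highest of all 12 dark values thus lay under +N on the arrays of replicate number 2. Without the WT-sib array of that number the difference was 2.08 (SE 0.56, adjusted p = 0.282). In light the difference of AT4G34950 was -0.01 (SE 0.67).

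That WT-sib +N-L array of number 2 was the dimmest dark array for 9 of the 34 members, or 26.5%, against 10.2% of all probe sets. It also held the lowest dark value of AT5G48570, 5.79 against 29.2 or more elsewhere, and of 255284_at, 10.5 against 75.4 or more. CYP83A1, at 29.2 there against 392 and 929 on the other arrays of its group, had a nitrogen difference in the dark of 0.57 (SE 0.67) with that array and 1.30 (SE 0.54) without it. AT5G12110 had 0.61 (SE 0.42), AT3G14200 0.64 (SE 0.55), AT3G09440 0.50 (SE 0.26), AT3G44450 -0.38 (SE 0.29) and AT3G48460 -0.44 (SE 0.23) in the dark, all with an adjusted p of 0.9 or more on all arrays. Without that array AT5G12110 had 0.99 (SE 0.37, adjusted p = 0.587), AT3G09440 0.68 (SE 0.26, adjusted p = 0.593) and AT3G44450 -0.17 (SE 0.28). AT3G14200 fell to 0.23 (SE 0.53) without bzip1-1 -N-L number 2. None of these passed the threshold.

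**Figure D3:**
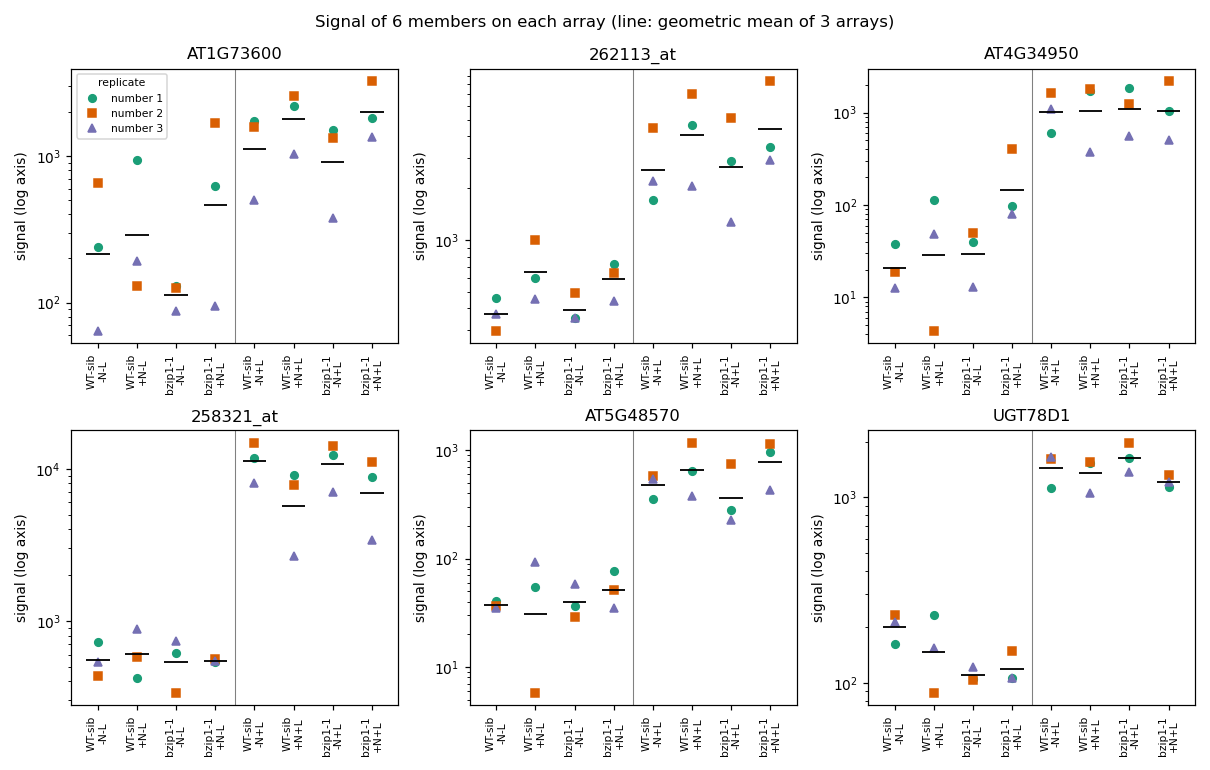
Signal of 6 members (AT1G73600, 262113_at, AT4G34950, 258321_at, AT5G48570 and UGT78D1) on every array by group, on a log axis, with symbols for the replicate number and a line at the geometric mean of 3 arrays. Dark groups lie left of the vertical line and light groups right of it, and within a light state the arrays of +N and -N and of both genotypes overlap for each of the 6.

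Whether nitrogen acted differently in light and in the dark was asked by the L*N term, the nitrogen difference in light minus that in the dark. None of the 34 members was called (background 0.0396%), and 0 had an unadjusted p below 0.05 (4.33%). The median was -0.22 over the members and -0.05 over all probe sets, and with single arrays left out it ran from -0.36 (30 below 0, without bzip1-1 -N+L number 3) to -0.04 (19 below 0, without WT-sib +N+L number 3). The largest was -1.41 (SE 0.95) for AT4G34950, followed among the named members by -0.72 (SE 0.59) for AT5G12110, 0.72 (SE 0.71) for AT5G48570 and -0.63 (SE 0.71) for CHIL. Without WT-sib +N-L number 2 these values were -2.09 (SE 0.77), -1.11 (SE 0.50), 0.11 (SE 0.49) and -0.95 (SE 0.69), and CYP83A1 had -1.20 (SE 0.74). CHIL had -0.08 (SE 0.53) without bzip1-1 -N-L number 3. The intervals of only 4 members lay between -1 and 1, so most members could hold a 2-fold difference in this term that 3 arrays per group do not resolve.

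Genotype was asked in the same way. Over all treatments 0 of 34 members were called (background 0.00879%, or 2 probe sets) and 2 had an unadjusted p below 0.05 (3.3%). In light 0 were called (0%) and 1 had such a p (2.33%), and in the dark 0 were called (0.0044%) and 2 had such a p (2.63%). The ANOVA of the study's design on either scale, adjusted by Benjamini-Hochberg at 0.05, called 0 members for genotype too, and 1 of 22746 probe sets. The study's own lists used a looser threshold without such an adjustment, which was not applied here. The median difference was 0.02 over the members and 0.01 over all probe sets, and with single arrays left out it lay between -0.07 (without WT-sib +N+L number 3) and 0.10 (without bzip1-1 -N+L number 3). On all arrays 33 of 34 members had an absolute difference under 0.5, and the 95% interval lay between -1 and 1 for 27 of 34. Within light the interval did so for 20 members and within the dark for 15, again with 1 spread over light and dark groups.

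The 2 members with an unadjusted p below 0.05 over all treatments were the unnamed 257262_at and UGT78D1. For 257262_at the bzip1-1 arrays in light read 683, 1638 and 2242 at the lowest, median and highest, and the WT-sib arrays 608, 1012 and 1299. The bzip1-1 array was the higher one in 6 of 6 number-matched pairs in light, with overlapping groups, and the difference was 0.55 in light (SE 0.24, 95% interval 0.05 to 1.06) and 0.38 over all treatments (SE 0.17). Its adjusted p was 1 in both. One of the 6 pairs is the -N+L pair of number 1 whose labels are in doubt, and without it the difference was 0.57 in light (SE 0.28, unadjusted p = 0.057) and 0.39 over all treatments (SE 0.19, unadjusted p = 0.0517).

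UGT78D1, the flavonol rhamnosyltransferase, was dimmer in bzip1-1 on most dark arrays. They read 163, 213 and 234 in WT-sib -N-L and 104, 105 and 121 in bzip1-1 -N-L, which did not overlap under -N. Under +N they read 88.6, 155 and 231 in WT-sib and 106, 107 and 149 in bzip1-1, which did. The genotype difference in the dark was -0.59 (SE 0.19, 95% interval -0.99 to -0.19, unadjusted p = 0.0055, adjusted p = 1), and in light it was 0.02 (SE 0.19). The L*G term, the light difference in bzip1-1 minus that in WT-sib, was 0.61 for this member (SE 0.27, unadjusted p = 0.0352, adjusted p = 1), and without the doubted pair it was 0.52 (SE 0.29, unadjusted p = 0.0856).

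AT4G34950 had the largest genotype difference, 0.73 (SE 0.48, adjusted p = 1), with 1.41 (SE 0.67) in the dark and 0.04 (SE 0.67) in light. The dark arrays of bzip1-1 read 12.9, 63.3 and 402 and those of WT-sib 4.36, 26.7 and 114. CYP83A1 had a genotype difference of -0.94 (SE 0.67) in the dark and 0.24 (SE 0.67) in light, CHIL had -0.38 (SE 0.35) over all treatments, AT2G27420 0.38 (SE 0.26) and TBL26 0.25 (SE 0.25). Without WT-sib +N-L number 2 the dark difference was 0.73 (SE 0.56) for AT4G34950 and -1.67 (SE 0.54, adjusted p = 1) for CYP83A1.

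Terms with genotype called no member either. For L*G 0 were called (background 0%) and 1 had an unadjusted p below 0.05 (1.71%). For N*G, the nitrogen difference in bzip1-1 minus that in WT-sib, 0 were called (0%) and 0 had such a p (2.69%). For N*L*G, the change of N*G from dark to light, 0 were called (0%) and 0 had such a p (1.79%). The intervals were wide, and 5, 3 and 0 members had one between -1 and 1 for L*G, N*G and N*L*G. The median of N*G was 0.23 over the members and 0.00 over all probe sets, with 24 members above 0, where 50.3% of all probe sets were. It was 0.05 with 20 above 0 without bzip1-1 -N+L number 3, 0.08 with 19 above 0 without WT-sib +N+L number 3 and 0.42 with 26 above 0 without bzip1-1 +N+L number 3. The largest N*G values were 1.70 (SE 1.02) for 255284_at, 1.04 (SE 0.92) for AT1G73600 and 1.02 (SE 0.95) for CYP83A1, members with a wide scatter in the dark. Without WT-sib +N-L number 2 they were 0.73 (SE 0.58), 0.75 (SE 0.94) and 0.30 (SE 0.74).

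Within a light state, the variation of the members followed the replicate number more than nitrogen or genotype. Of the variation of a member over the 12 light arrays, the replicate number accounted for a median of 63.3%, nitrogen for 2.48%, genotype for 0.52% and N*G for 1.22%, with 20.5% left over. Over all probe sets these medians were 33.1%, 6.04%, 2.97%, 2.96% and 37.2%. The replicate number was the largest of these in 26 of 34 members in light. It reached 94.6% for AT3G14200, the DnaJ protein, and 87.9% for AT3G09440, the Hsp70, and was 11.7% for cPT4. In the dark its median was 31.7%, against 28.3% over all probe sets. It was the largest in 12 members there, and the part left over was the largest in 20. The replicate number has more levels than nitrogen or genotype, so scatter alone gives it a larger share. The shares were not adjusted for this.

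In light the arrays of replicate number 3 were low for most members. Their 4 arrays lay below the group means in 28 of 34 members, with a median deviation of -0.51, while the median over all probe sets was 0.05. Number 3 was the lowest array of its group for 28 members in WT-sib +N+L, 28 in bzip1-1 -N+L, 26 in bzip1-1 +N+L and 17 in WT-sib -N+L. The arrays of number 2 lay above the group means in 29 members, with a median of 0.33. The deepest deviation in number 3 was -1.18, for AT3G14200, and AT1G73600 had -0.95. The 6 members above their group means in number 3 were AT5G12110 (0.56), 256245_at (0.18), cPT4 (0.16), 248332_at (0.16), 263034_at (0.10) and AT2G27420 (0.04).

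**Figure D4:**
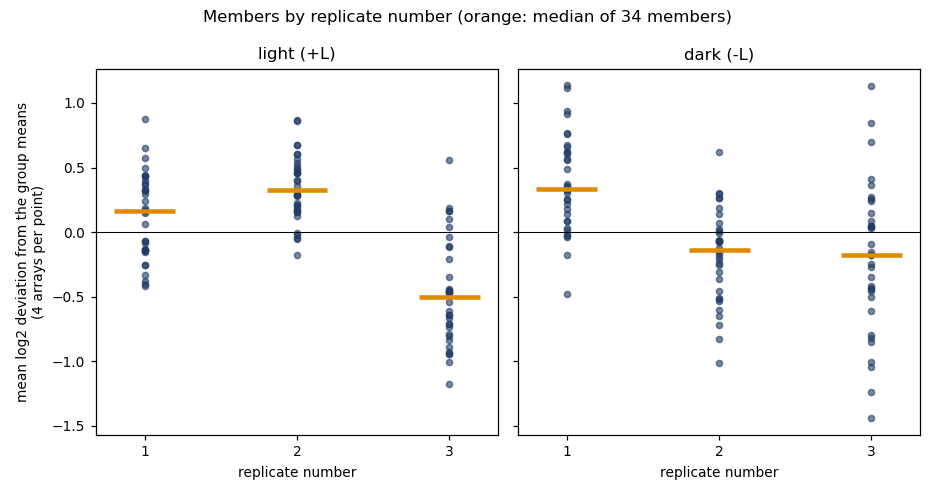
Mean log2 deviation of each of the 34 members from the group means, by replicate number, in light (left) and in the dark (right), where each point is a mean of 4 arrays and the orange bar is the median over members. In light the bar is at -0.51 for number 3 and at 0.33 for number 2, and in the dark number 1 is highest at 0.34.

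One array stood out among these. WT-sib +N+L number 3 was the dimmest of the 12 light arrays for 19 of 34 members, or 55.9%, against 9.58% of all probe sets. In the light difference the numbers also parted, with a median of 2.82 in number 1, 3.57 in number 2 and 2.76 in number 3, and number 2 gave the largest value in 27 members. The direction was the same in all 3 numbers for every member, with a lowest value of 1.22. Whether a number marks 1 of the independent experiments is not given in the sources used here.

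Other genes of the same pathways were taken from lists. Only list genes with a named probe set could be followed, and others may lie among the 7857 probe sets without a name, unnamed members included. Of 21 flavonoid and phenylpropanoid genes 12 were found by name, with light differences of 0.78 to 5.38 and a median of 1.87. Among these 12, UGT78D1 and CHIL are members. None of the 12 was called for nitrogen or genotype. Their nitrogen median was -0.22, against -0.04 over all probe sets. Of 18 heat response and chaperone genes 6 were found by name, with light differences of 0.46 to 3.80, and 1 rose with nitrogen. This was DREB2A, a transcription factor of drought and heat responses, at 1.37 (SE 0.22, adjusted p = 0.00207), while the member AT5G48570 had 0.42 (SE 0.36, adjusted p = 0.836). Of 16 sulfate and glucosinolate genes 4 were found by name, with light differences of 1.21 to 2.79 and CYP83A1 the highest, and 0 were called for nitrogen or genotype.

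The nitrogen treatment itself was visible outside the set. Of 12 nitrate uptake and assimilation genes 9 were found by name, and 7 rose with nitrogen, among them NIA1, a nitrate reductase, by 2.53 (SE 0.26, adjusted p = 1.97e-05 by limma). None of the 9 was a member, and their light differences were 0.08 to 1.72. Of 5 genes for ammonium uptake and assimilation found by name 2 rose with nitrogen, the asparagine synthetase ASN2 by 1.78 (SE 0.19) and the glutamate synthase GLT1 by 0.86 (SE 0.15).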

How the data were processed

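Signal intensity of 22810 probe sets was deposited by the authors for 24 ATH1 arrays, made with Microarray Analysis Suite 5.0 on a linear scale and scaled to a trimmed mean of 500 (2% trimmed at each end), without detection calls. After 64 control probe sets were set aside, log2 signal without an offset was fitted by lmFit of limma 3.58.1 (R 4.3.3) with a mean for each of the 8 groups and moderated by eBayes with a mean-variance trend. P-values are two-sided, adjusted by Benjamini-Hochberg over 22746 probe sets. They measure the spread between 3 arrays per group, whose number limits the precision. Each probe set has 1 spread over all 8 groups, so an SE within light also carries the scatter in the dark. The light contrast chose the members and was not tested. The members and the gene lists were chosen with earlier results of these data known. Named members had the largest differences in each term, lay nearest a threshold or were on a list, and members given by probe set were singled out after their values were seen. Names came from the platform's annotation and the study's gene tables. Alternatives were the replicate number as a block, ANOVA on linear and log2 signal, no trend, quantile normalization, a common median, 32 added to the signal, omission of probe sets under the 40th percentile of mean signal, each array left out, and the -N+L arrays of number 1 left out. The fit was tested on simulated data without a replicate-number effect. At a log2 change of 1 it recovered 66 of 100 changed probe sets for nitrogen and 67 of 100 for genotype. The changed probe sets were drawn from all, and the members have a larger median SE (0.26 against 0.18 for nitrogen). Plots used matplotlib 3.10.9 (Python 3.11.15). Promoter motifs were planned and not run, since no sequence was at hand.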

Additional observations from a re-analysis of the deposited data

How the results depend on the processing

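Of 359 recounts of members over contrasts and settings, 3 moved. With the replicate number as a block, 1 member passed for nitrogen (262113_at, 0.70, SE 0.17, adjusted p = 0.0276 by limma, against 0.0276 to 0.715 over its alternatives), and the other 9 contrasts stayed at 0 members. The block raised the calls over all probe sets from 217 to 652 for nitrogen, from 149 to 417 in light and from 16 to 105 in the dark. It was 1 shift per number shared by light and dark arrays, so differences of that shift between light states stayed in the SE. The main fit did not treat the numbers as pairing, since no source used here ties a number to 1 experiment. The deviations of same-numbered arrays correlated at -0.07 to 0.42 (median 0.245, over 0.1 in 65 of 84 pairs). Over 168 pairs of different number the median was -0.08, and 3 were over 0.1. Same-numbered arrays were thus more alike, a likeness that the fit without the block leaves in the SE. At a light difference of at least 2 the rule gave 75 probe sets and at 3 it gave 16. It gave 31 after scaling to a common median and 34 after quantile normalization. Leaving out each array in turn, a setting chosen for this count after seeing the data, gave 30 to 41. None of the 30 named pairs of member and contrast passed the threshold in the main fit. Settings such as the block or no trend cannot change a difference, only its SE. The counts for these pairs were therefore largely set in advance and do not measure robustness. Of 960 alternatives for the 30 pairs, 956 kept their direction and side of the threshold and 4 reversed. These were DFL2 for nitrogen in light, 0.14 with all arrays and -0.13 to 0.49 with an array left out. The cause was not tested. The 11 members below the 40th percentile in the dark have folds that depend most on dim signal.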
